A study of Mus musculus with 12 samples.

Results

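The 39 genes described here encode factors that build ribosomes: subunits of RNA polymerase I, proteins of small nucleolar ribonucleoproteins (snoRNPs), and assembly factors of the small (40S) and large (60S) ribosomal subunits. They were taken by symbol from a list of ribosome biogenesis factors, which was chosen with earlier results of these data known. All 39 were found among the 27179 genes of the count table, and all 39 passed the filter on low counts. The cells were mouse embryonic fibroblasts of strain C57BL/6, connective-tissue cells isolated from wild-type embryos at embryonic day E13.5 and grown in 3% oxygen and 5% CO2. Every culture received a compound at 10 µM, either WM-8014, labelled an inhibitor of the MYST family of histone acetyltransferases, or WM-2474, labelled its inactive control. Messenger RNA of cultures 5, 6 and 7 was sequenced after 96 h and after 240 h of each compound, which makes 4 groups of 3 libraries. All groups thus share the strain, the low oxygen and exposure to a compound, and fibroblasts without either compound are not analysed here. The design text counts the cultures as biological replicates, and p-values measure the spread between them.

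Ribosomes are assembled in the nucleolus. RNA polymerase I transcribes the precursor of the 18S, 5.8S and 28S ribosomal RNAs, snoRNPs guide the chemical modification of its bases, and a sequence of assembly factors folds, cuts and exports the particles that become the 40S and 60S subunits. The genes of these factors are classic targets of the transcription factor MYC, which binds the E-box CACGTG with its partner MAX, and growing fibroblasts express them at high levels.

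Promoters of 5 members are shown because they carry the letters that this background concerns, or lack them: Nop2, Utp18 and Imp4 hold an E-box upstream of the start, and Ncl and Nolc1 hold none in the window. Nop2, Ncl and Nolc1 were lower with WM-8014 at both times, and Utp18 and Imp4 passed the test at neither. Each is the 150 bases before the start of the gene in RefSeq's promoter table (build GRCm38.p6), written 5′ to 3′ on the strand of the gene, with the E-box in capitals. The intervals are chr6:125131733-125131882 (plus strand) for Nop2, chr11:93885767-93885916 (minus strand) for Utp18, chr1:34439679-34439828 (plus strand) for Imp4, chr1:86359456-86359605 (minus strand) for Ncl and chr19:46075697-46075846 (plus strand) for Nolc1.
Nop2: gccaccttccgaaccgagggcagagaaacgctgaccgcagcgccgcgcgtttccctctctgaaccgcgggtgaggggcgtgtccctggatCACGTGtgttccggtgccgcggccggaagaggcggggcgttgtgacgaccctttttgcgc
Utp18: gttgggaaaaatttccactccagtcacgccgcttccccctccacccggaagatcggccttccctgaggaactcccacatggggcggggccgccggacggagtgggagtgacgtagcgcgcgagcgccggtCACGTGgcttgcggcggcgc
Imp4: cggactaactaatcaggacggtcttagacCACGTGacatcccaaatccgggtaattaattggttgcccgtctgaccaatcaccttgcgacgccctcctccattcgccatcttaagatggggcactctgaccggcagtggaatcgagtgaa
Ncl: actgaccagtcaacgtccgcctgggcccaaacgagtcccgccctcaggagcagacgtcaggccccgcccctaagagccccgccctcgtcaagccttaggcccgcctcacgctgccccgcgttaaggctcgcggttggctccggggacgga
Nolc1: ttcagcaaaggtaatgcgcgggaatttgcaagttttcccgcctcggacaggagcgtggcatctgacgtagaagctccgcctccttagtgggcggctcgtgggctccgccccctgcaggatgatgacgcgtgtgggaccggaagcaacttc
The table gave a promoter for 34 of the 39 members, from 250 bases before the start to 50 after it. CACGTG, which reads the same on both strands, was in 9 of those 34 (26.5%) and in 1243 of 10681 tested genes with a promoter (11.6%). Its first base was at -121 in Imp4, -60 in Nop2 and -20 in Utp18, counted from the start, and within the 50 transcribed bases in Pes1, Wdr43, Tsr1, Grwd1, Utp20 and Mybbp1a. Of the 9 members with the E-box 5 were lower with WM-8014 at 240 h, and of the 25 without it 17 were lower. Over all genes tested 21.4% were lower at that time. A match to these letters describes the window and is not a measured binding site.

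Library totals ran from 10147466 to 45903190 reads. The smallest and the largest were both WM-2474 96 h libraries. Fibroblast markers were high in all 12 libraries (10 genes, summed level 24646 to 41703 CPM, counts scaled to a common library total), and the markers Ptprc of leukocytes, Pecam1 of endothelium and Epcam of epithelium had 0 to 8 reads a library. Other genes of such lists were measured, at summed levels of 5.15 to 12.4 CPM for 7 macrophage and leukocyte genes, 2.36 to 7.60 for 6 of endothelium, 11.9 to 27.7 for 7 of epithelium (most of it Krt19), 53.7 to 74.7 for 6 of neurons and glia (most of it Tubb3) and 0.667 to 5.502 for 5 of adipocytes. The leukocyte list was at 7.31 to 7.98 CPM with WM-2474 and 9.07 to 12.4 CPM with WM-8014 at 96 h and at 5.15 to 6.27 against 9.87 to 11.3 CPM at 240 h. Of its 3 tested genes 1 rose at 96 h (Lyz2) and 2 at 240 h (Lyz2 and Csf1r). Fabp4 of adipocytes rose at both times and Kdr of endothelium fell at both, Krt18 of epithelium fell at 96 h and Sox10 of glia at 240 h. Of the 10 fibroblast markers 2 rose and 2 fell with WM-8014 at each time. From 96 to 240 h 7 of them rose and 1 fell with WM-2474, and 9 rose and 1 fell with WM-8014. Of all genes, 19.8% and 24.8% rose over time. All 4 tested endothelial genes fell over time with both compounds, against 19.1% and 25.0% of all genes. A list of 6 skeletal muscle genes, of which 2 passed the filter on low counts, led by Des, was at 82.4 to 106 CPM in the WM-8014 240 h libraries and at 21.0 to 36.5 CPM in the other 9. The part of these genes in the results below was not tested. All 12 libraries are labelled female, but the Y-linked gene Ddx3y was at 96.3 to 124 CPM in each, and Xist, the RNA by which female cells silence an X chromosome, had 0 to 4 reads. Cultures 6 and 7 with WM-2474 at 96 h were unlike the rest in some genes, picked with their values known. Misp3 was at 0.724 CPM in culture 6 and 0.943 CPM in culture 7, and the lowest of the remaining libraries had 79.9 CPM.

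Levels of the members differed by more than an order of magnitude per length of transcript. On the scale of CPM per kilobase of the deposited gene length, averaged over the 12 libraries, Npm1 was highest at 117, followed by Ncl at 82.6, Mybbp1a at 60.4, Nop58 at 47.5 and Gnl3 at 43.4. Npm1 encodes nucleophosmin, a nucleolar histone and ribosome chaperone, and Ncl encodes nucleolin, an abundant RNA-binding protein of the nucleolus. The lowest were Wdr12 at 3.70, Rrp1b at 6.49 and Polr1b at 6.82. Ranges over libraries overlapped for most neighbours in this order, among them Nop58 and Gnl3. Ncl alone took 20.1 to 25.1% of all reads of the 39 genes. Within a group, cultures agreed closely: the median coefficient of variation of a member over 3 libraries was 4.14% to 6.16% in the 4 groups.

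The compounds were first compared within each time, which asks how the fibroblasts responded to the labelled inhibitor at a matched dose. Messages of ribosome biogenesis factors were modestly lower with WM-8014, more of them at 240 h than at 96 h. At 96 h 12 of the 39 fell and 0 rose, and at 240 h 26 fell and 0 rose, at an adjusted p under 0.05 by edgeR's quasi-likelihood test with Benjamini-Hochberg adjustment over 14136 genes. The 39 genes together took 0.326 to 0.334% of reads in the WM-2474 96 h libraries, 0.286 to 0.313% in the WM-8014 96 h libraries, 0.291 to 0.320% in the WM-2474 240 h libraries and 0.246 to 0.257% in the WM-8014 240 h libraries. The WM-8014 libraries were below all WM-2474 libraries of the same time at both times.

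Over all genes tested, 11.8% were called lower and 10.9% higher at 96 h, and 22.8% either way. At 240 h these shares were 21.4%, 21.2% and 42.6%. Of the members, 30.8% were called lower at 96 h and 66.7% at 240 h. The median log2 fold change of the members was -0.10 at 96 h, with a range from -0.30 to 0.14, and -0.21 at 240 h, with a range from -0.46 to 0.22. The median of all genes was 0.00 and 0.01. The fold change was below 0 for 33 of the 39 at 96 h and for 34 at 240 h, against 50% and 49.3% of all genes. At an unadjusted p under 0.05, 1 member was higher at 96 h (Polr1a) and 2 at 240 h (Noc3l and Wdr12), and DESeq2 called 0 higher at either time.

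**Figure D1:**
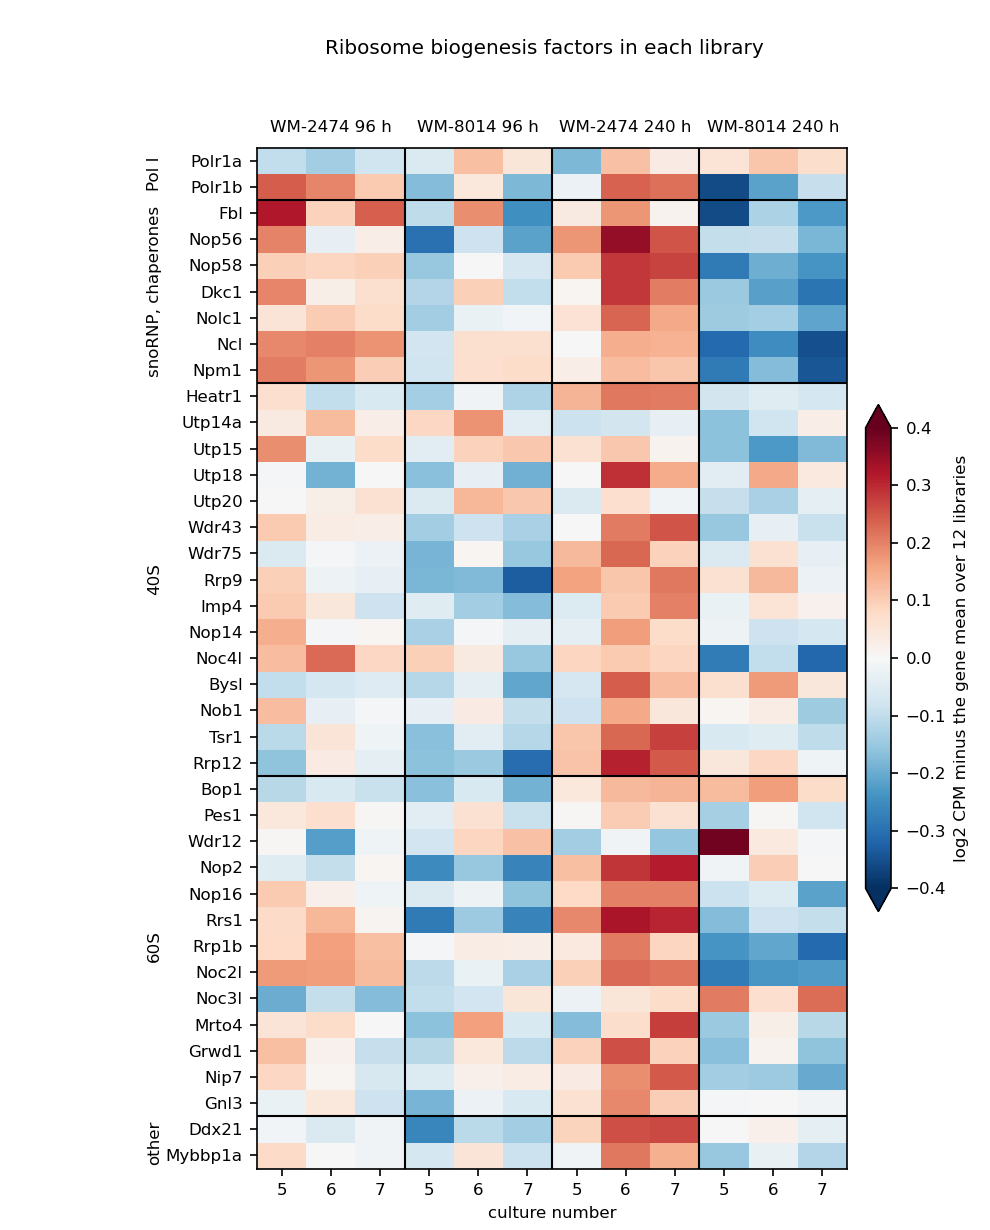
Level of each of the 39 factors (rows) in each of the 12 libraries (columns, by group and culture number), as log2 CPM minus the gene's mean over the 12 libraries (colour scale). With WM-2474 at 240 h cultures 6 and 7 stand highest (2 and 3 of 39 members below their own mean) and the WM-8014 libraries of cultures 5 and 7 lowest at both times.

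All 3 WM-8014 libraries lay below all 3 WM-2474 libraries for 14 members at 96 h and for 25 at 240 h, against 19.9% and 25.6% of all genes. They lay above for 1 member at each time, Polr1a and Wdr12, against 18.1% and 26.2% of all genes. By culture, the median log2 difference over the members at 96 h was -0.16 in culture 5, -0.01 in culture 6 and -0.10 in culture 7, and 36, 21 and 32 members were lower. At 240 h the medians were -0.15, -0.24 and -0.26, and 30, 35 and 35 members were lower. Culture 6 thus showed almost no shift at 96 h and a shift like that of culture 7 at 240 h. Lower in both comparisons were 11 members, at 96 h only Rrp9, at 240 h only 15, and 12 passed at neither time. The share of all genes called lower at both times was not counted. Reads in bulk RNA are shares of a pool, so fewer cells of a type and less RNA per cell cannot be told apart.

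Single libraries changed the counts at 96 h. Without 1 library, the count of 12 became 6 (WM-2474, culture 5), 7 (WM-2474, culture 7), 4 (WM-8014, culture 5) or 7 (WM-8014, culture 7), and it became 2 without culture 5 in all groups, 4 without culture 7 and 3 when cultures 6 and 7 were both removed from the WM-2474 96 h group. The 96 h median of -0.10 became -0.064 without culture 5 of the WM-8014 96 h group and -0.063 without culture 5 in all groups. Only Rrs1 and Noc2l kept their call at 96 h in all 22 alternatives. At 240 h 16 of the 26 did: Nop16, Nop56, Nop58, Ncl, Npm1, Dkc1, Rrs1, Rrp1b, Wdr43, Nolc1, Noc2l, Noc4l, Heatr1, Polr1b, Ddx21 and Nip7.

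**Figure D2:**
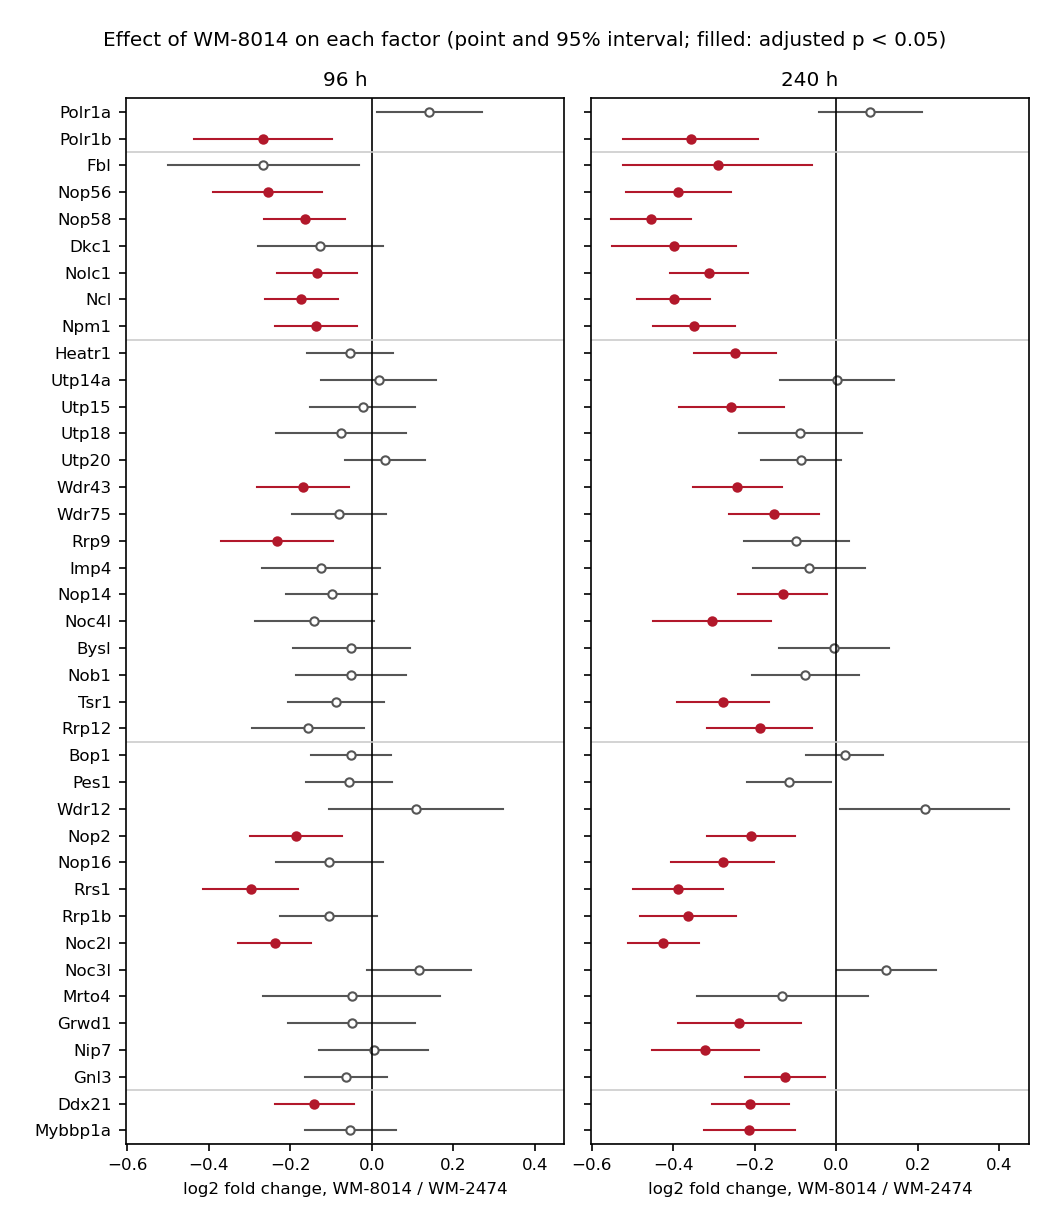
Log2 fold change of WM-8014 over WM-2474 (horizontal axis) for each factor (rows, grouped by role) at 96 h (left) and 240 h (right), with its 95% interval; filled points passed an adjusted p of 0.05. At 240 h 26 filled points lie left of 0 and 0 lie right of it, with Nop58 lowest at -0.46.

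RNA polymerase I subunits did not move together. Polr1b, the second largest subunit, was at 32.0, 31.0 and 29.1 CPM with WM-2474 at 96 h (cultures 5, 6 and 7 in this order, as in all lists of 3 values below) and at 24.0, 27.8 and 23.9 CPM with WM-8014. Where values stand against each other, those with WM-2474 come first. At 240 h it was at 26.6, 31.9 and 31.5 CPM with WM-2474 and 21.1, 23.3 and 25.3 CPM with WM-8014. The groups did not overlap at either time, and Polr1b fell at 96 h (log2 fold change -0.27, SE 0.081, adjusted p = 0.0216) and at 240 h (-0.36, SE 0.08, adjusted p = 0.00102). Polr1a, the largest subunit, which holds the catalytic centre, was at 73.3, 71.2 and 74.3 CPM with WM-2474 and 75.4, 85.3 and 81.1 CPM with WM-8014 at 96 h, and at 69.3, 85.2 and 80.3 against 81.4, 84.7 and 82.4 CPM at 240 h. All 3 WM-8014 libraries were above the WM-2474 libraries at 96 h, and the groups overlapped at 240 h. Its log2 fold changes of 0.14 (adjusted p = 0.109) and 0.08 (adjusted p = 0.278) did not pass the test, and the 95% interval at 96 h reached 0.27. With the culture number as a block Polr1a passed as higher at 96 h (adjusted p = 0.034). The 96 h call of Polr1b was lost in 7 of 22 alternatives, with an adjusted p of up to 0.123.

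The 7 snoRNP proteins and nucleolar chaperones (Fbl, Nop56, Nop58, Dkc1, Nolc1, Ncl and Npm1) had the lowest medians of the role groups. At 96 h 5 of them fell and at 240 h all 7 did, against 11.8% and 21.4% of all genes called lower. The median log2 fold changes of the 7 were -0.16 and -0.39. Rrp9 and Imp4, described below with the U3 snoRNP, were grouped with the small subunit. Rrp9 passed at 96 h only and Imp4 at neither time. Nop58, a scaffold protein of the box C/D snoRNPs that direct 2′-O-methylation of ribosomal RNA, was at 99.4, 98.8 and 99.5 CPM with WM-2474 and 83.9, 93.0 and 88.8 CPM with WM-8014 at 96 h. At 240 h it was at 100.2, 113 and 112 against 76.6, 81.3 and 79.0 CPM. Every WM-8014 library was below every WM-2474 library at both times. The fold change was -0.16, SE 0.048, adjusted p = 0.0165 on the log2 scale at 96 h and -0.46, SE 0.047, adjusted p = 1.03e-07 at 240 h, the lowest of the 39 at that time.

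Nop56, the partner of Nop58 in the same particles, was at 78.5, 66.9 and 69.6 CPM against 55.6, 64.6 and 58.9 CPM with WM-8014 at 96 h and at 77.2, 87.4 and 81.4 against 64.0, 64.1 and 60.2 CPM at 240 h. Its groups did not overlap at either time, and it fell at 96 h (-0.26, SE 0.064, adjusted p = 0.00743) and at 240 h (-0.39, SE 0.061, adjusted p = 5.24e-05). Fbl, fibrillarin, the methyltransferase of these particles, was at 10.9, 9.26 and 10.3 CPM against 8.08, 9.89 and 7.31 CPM at 96 h and at 8.90, 9.83 and 8.76 against 6.76, 7.95 and 7.39 CPM at 240 h. Culture 6 of the WM-8014 96 h group lay above a WM-2474 library, and the groups separated at 240 h only. Fbl did not pass at 96 h (-0.27, SE 0.11, adjusted p = 0.0936) and fell at 240 h (-0.29, SE 0.11, adjusted p = 0.0403), a call lost in 9 of 22 alternatives. Fbl has 2 and Nop56 5 other genes with a near-identical transcript, so part of their reads may have been counted elsewhere or left out.

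Dkc1, dyskerin, the pseudouridine synthase of the box H/ACA snoRNPs, was at 36.9, 32.8 and 33.7 CPM with WM-2474 and 29.7, 34.4 and 30.1 CPM with WM-8014 at 96 h. At 240 h it was at 32.4, 39.2 and 37.2 against 29.1, 27.7 and 26.3 CPM. The groups overlapped at 96 h and not at 240 h, where Dkc1 fell (-0.40, SE 0.073, adjusted p = 0.000142; at 96 h -0.13, SE 0.074, adjusted p = 0.24). Nolc1, a chaperone of both snoRNP classes, was at 90.6, 93.8 and 92.03 against 79.3, 85.8 and 86.8 CPM at 96 h and at 90.9, 103 and 97.0 against 79.1, 79.4 and 75.5 CPM at 240 h. It fell at 96 h (-0.13, SE 0.047, adjusted p = 0.043), a call lost in 12 of 22 alternatives, and at 240 h (-0.31, SE 0.046, adjusted p = 1.19e-05), with no overlap of the groups at either time.

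Ncl was at 772, 778 and 767 CPM with WM-2474 and at 641, 707 and 707 CPM with WM-8014 at 96 h, and at 677, 748 and 745 against 545, 569.8 and 529.5 CPM at 240 h. Every WM-8014 library was lower than every WM-2474 library of its time. Ncl fell at 96 h (-0.17, SE 0.043, adjusted p = 0.0066) and by 24.2% at 240 h (-0.40, SE 0.043, adjusted p = 2.22e-07). Npm1 was at 231, 226 and 214 against 189, 209.9 and 211 CPM at 96 h and at 204, 218 and 216 against 165, 178 and 158 CPM at 240 h. It also fell without overlap at 96 h (-0.14, SE 0.048, adjusted p = 0.0463) and at 240 h (-0.35, SE 0.048, adjusted p = 7.4e-06). Its 96 h call was lost in 11 of 22 alternatives, and 8 other genes carry a transcript nearly identical to that of Npm1.

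**Figure D3:**
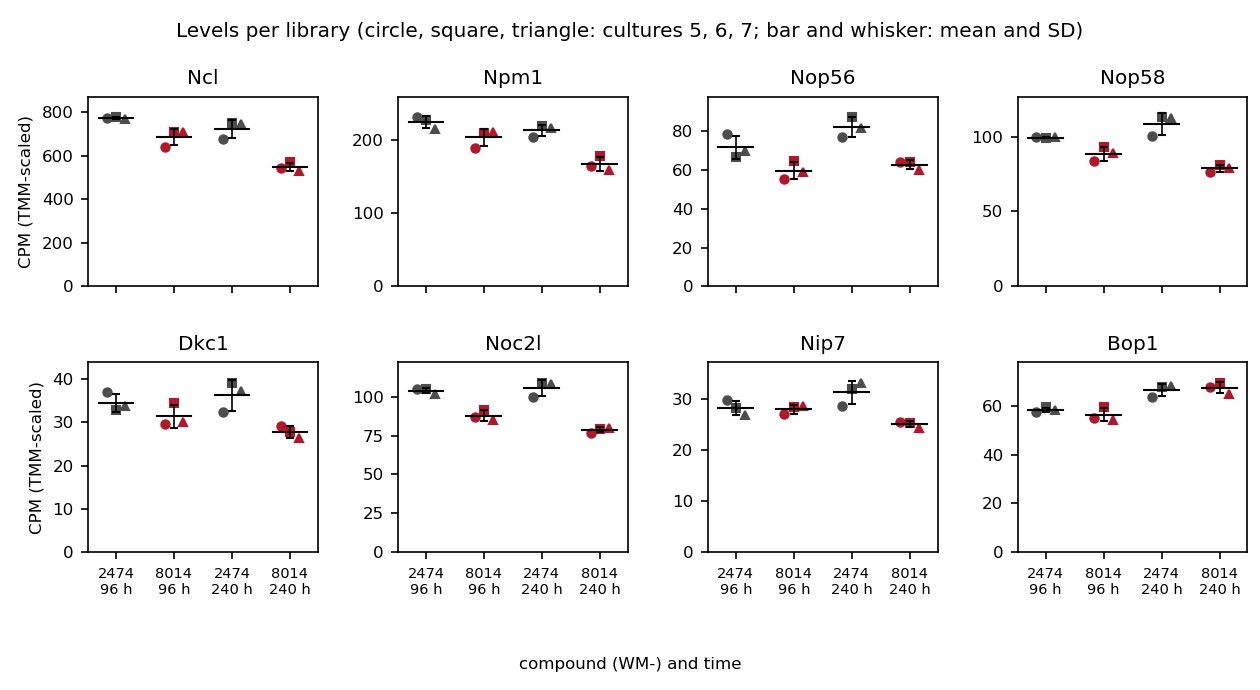
CPM (vertical axis, from 0) of 8 members in the 4 groups; points are libraries of cultures 5, 6 and 7, and the bar with whiskers is the mean with the SD of 3. Ncl and Nop58 lie lowest in the WM-8014 240 h libraries, at 530 to 570 CPM for Ncl.

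Of the 15 factors of the small subunit, 2 fell at 96 h and 8 at 240 h, against 11.8% and 21.4% of all genes called lower. The count at 96 h is close to the share of all genes. The median log2 fold changes of the 15 were -0.08 and -0.13. Heatr1, Utp15, Wdr43 and Wdr75 belong to the UtpA complex, which binds the nascent ribosomal RNA precursor first and is also needed for its transcription. Wdr43 was at 84.5, 80.2 and 79.96 CPM with WM-2474 and 71.3, 74.1 and 71.7 CPM with WM-8014 at 96 h, and at 78.7, 90.8 and 93.5 against 70.7, 76.8 and 73.9 CPM at 240 h. The groups did not overlap at either time, and Wdr43 fell at 96 h (-0.17, SE 0.054, adjusted p = 0.0286), a call lost in 10 of 22 alternatives, and at 240 h (-0.24, SE 0.053, adjusted p = 0.000788). Heatr1 was at 56.3, 50.1 and 51.5 against 48.9, 53.2 and 49.3 CPM at 96 h, where the groups overlapped, and at 59.1, 62.1 and 62.0 against 51.0, 51.9 and 51.2 CPM at 240 h, where they did not. It did not pass at 96 h (-0.05, SE 0.05, adjusted p = 0.488) and fell at 240 h (-0.25, SE 0.048, adjusted p = 0.000262). Utp15 and Wdr75 did not pass at 96 h and fell at 240 h, from 32.0 ± 1 to 26.9 ± 0.64 CPM and from 56.1 ± 2.8 to 50.2 ± 2.2 CPM (mean ± SD, n = 3). The Wdr75 call (log2 fold change -0.15) was lost in 8 of 22 alternatives and that of Utp15 in 2.

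Rrp9, a protein specific to the U3 snoRNP that guides the first cuts of the precursor, showed the opposite order of the times. It was at 28.7, 26.5 and 26.2 CPM with WM-2474 and 23.6, 23.7 and 21.4 CPM with WM-8014 at 96 h, without overlap, and fell (-0.23, SE 0.066, adjusted p = 0.0148). At 240 h it was at 30.1, 29.0 and 31.1 against 28.0, 29.4 and 26.4 CPM, with overlap, and did not pass (-0.10, SE 0.062, adjusted p = 0.214). The difference between these effects was 0.13 (adjusted p = 0.413), which did not pass either. Imp4, also bound to the U3 particle, passed at neither time, at 32.6 ± 2.1 against 29.4 ± 1.3 CPM at 96 h and 34.0 ± 3.1 against 32.3 ± 0.93 CPM at 240 h.

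Nop14 and Noc4l, partners in early 40S assembly, were lower at 240 h, Noc4l with 30.8, 31.2 and 30.8 CPM against 23.9, 27.1 and 23.3 CPM (-0.31, SE 0.07, adjusted p = 0.00117) and Nop14 with 63.7, 73.5 and 68.9 against 64.6, 61.9 and 62.4 CPM (-0.13, SE 0.053, adjusted p = 0.049). The Nop14 groups overlapped in culture 5, where the WM-2474 library was the lower one, and its call was lost in 14 of 22 alternatives. Of the late factors, Tsr1 fell at 240 h from 47.6 ± 2.7 to 39.3 ± 0.75 CPM, a call that was lost (adjusted p = 0.417) when all libraries were thinned to the smallest total. Rrp12, an export factor, fell at 240 h from 39.1 ± 2.7 to 34.3 ± 1.2 CPM, at a log2 fold change of -0.19, and this call was lost in 6 of 22 alternatives.

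Bysl, which acts late in 40S maturation, was at 36.4, 37.1 and 37.6 CPM with WM-2474 and 36.0, 38.0 and 33.7 CPM with WM-8014 at 96 h, and at 37.1, 46.1 and 42.4 against 40.8, 43.8 and 40.2 CPM at 240 h. Its groups overlapped at both times and its log2 fold changes were -0.05 (adjusted p = 0.648) and -0.01 (adjusted p = 0.953), with a 95% interval of -0.14 to 0.13 at 240 h. Nob1, the nuclease that makes the final cut of 18S RNA, was at 42.8 ± 3.5 against 40.7 ± 2.6 CPM at 240 h. Utp14a and Utp20 of the small subunit processome and Utp18 passed at neither time; at 240 h their means were 23.7 ± 0.44 against 23.6 ± 1.6, 110.4 ± 4.8 against 104 ± 3.4 and 41.4 ± 4.2 against 38.6 ± 2.7 CPM.

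Of the 13 factors of the large subunit, 3 fell at 96 h (Nop2, Rrs1 and Noc2l) and 8 at 240 h (these and Nop16, Rrp1b, Grwd1, Nip7 and Gnl3). Of all genes, 11.8% and 21.4% were called lower. The median log2 fold changes of the 13 factors were -0.06 and -0.21. Noc2l, part of an early pre-60S complex and also known as an inhibitor of histone acetyltransferases, was at 105, 105 and 102 CPM with WM-2474 and 86.7, 91.7 and 85.4 CPM with WM-8014 at 96 h. At 240 h it was at 99.8, 109 and 108 against 76.9, 79.4 and 79.7 CPM. The groups stood well apart at both times, and Noc2l fell at 96 h (-0.24, SE 0.043, adjusted p = 0.000386) and at 240 h (-0.42, SE 0.042, adjusted p = 5.17e-08). Rrs1, which helps to bring the 5S RNA into the particle, was at 46.1, 48.0 and 44.1 against 35.9, 39.5 and 36.3 CPM at 96 h and at 49.96, 54.8 and 54.1 against 38.7, 41.2 and 40.9 CPM at 240 h. Its groups did not overlap, and its fold changes were -0.30, SE 0.056, adjusted p = 0.000612 at 96 h, the lowest of the 39, and -0.39, SE 0.053, adjusted p = 4.51e-06 at 240 h. Rrs1 has 3 genes with a near-identical transcript, and an exon of Noc2l overlaps one of Samd11 on the opposite strand.

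Nop2, a methyltransferase of 28S RNA, was at 64.2, 62.2 and 66.8 CPM with WM-2474 and 55.6, 59.8 and 55.2 CPM with WM-8014 at 96 h, and at 72.1, 81.0 and 82.6 against 65.7, 71.0 and 66.5 CPM at 240 h. Its groups did not overlap at either time although levels rose from 96 to 240 h with both compounds. It fell with WM-8014 at 96 h (-0.19, SE 0.055, adjusted p = 0.0173), a call lost in 7 of 22 alternatives, and at 240 h (-0.21, SE 0.052, adjusted p = 0.0025), lost only without culture 7 (adjusted p = 0.0714).

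Nip7, counted here with the large subunit, did not differ beyond the spread at 96 h, with 29.8, 28.3 and 26.9 CPM against 27.1, 28.5 and 28.7 CPM (0.00, SE 0.065, adjusted p = 0.974). Its groups separated at 240 h, with 28.8, 32.0 and 33.3 against 25.5, 25.4 and 24.5 CPM (-0.32, SE 0.063, adjusted p = 0.000278). Rrp1b, a nucleolar protein related to Rrp1, was at 34.6, 36.8 and 35.7 against 32.7, 33.5 and 33.4 CPM at 96 h, without overlap but not past the test (-0.11, SE 0.057, adjusted p = 0.195). At 240 h it was at 33.7, 37.9 and 34.8 against 27.8, 28.4 and 26.4 CPM and fell (-0.36, SE 0.057, adjusted p = 2.23e-05). Nop16 fell at 240 h from 34.9 ± 1.7 to 28.7 ± 1.7 CPM and Grwd1, the chaperone of ribosomal protein Rpl3, from 29.3 ± 2 to 24.6 ± 1.8 CPM, and the Grwd1 call was lost in 4 of 22 alternatives. Gnl3, nucleostemin, was at 85.1, 93.2 and 87.3 CPM with WM-2474 and 81.3, 81.6 and 80.7 CPM with WM-8014 at 240 h, a small difference without overlap (-0.13, SE 0.047, adjusted p = 0.0353) whose call was lost in 9 of 22 alternatives.

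The PeBoW complex (Pes1, Bop1 and Wdr12), which is required for the processing of 28S RNA, had no member past the main test at either time. Some alternatives called Pes1 or Wdr12 at 240 h. Bop1 was at 57.5, 59.5 and 58.3 CPM with WM-2474 and 55.3, 59.5 and 54.5 CPM with WM-8014 at 96 h and at 63.9, 67.9 and 68.2 against 67.7, 69.7 and 65.2 CPM at 240 h. These groups overlapped, and the log2 fold change at 240 h was 0.02, SE 0.045, adjusted p = 0.751, with a 95% interval of -0.07 to 0.11. Pes1 was at 52.6, 56.2 and 54.7 CPM against 47.8, 52.6 and 49.6 CPM at 240 h, lower in all 3 cultures but with groups that touched, and did not pass (-0.12, SE 0.05, adjusted p = 0.0658). Blocked on culture number it passed as lower (adjusted p = 0.034), and its lowest adjusted p over the alternatives was 0.0311. Wdr12 was at 11.3, 12.3 and 11.1 CPM against 16.2, 12.8 and 12.3 CPM at 240 h. All 3 WM-8014 libraries were higher, culture 5 most, and the change did not pass (0.22, SE 0.1, adjusted p = 0.0845). Over the alternatives the lowest adjusted p of Wdr12 was 0.0497, which passed as higher. At 96 h the log2 fold changes of Pes1 and Wdr12 were -0.06 (adjusted p = 0.462) and 0.11 (adjusted p = 0.484). Noc3l, a partner of Noc2l, was also at a higher mean with WM-8014, at 30.3 ± 1.1 against 32.9 ± 1.8 CPM at 96 h and 34.6 ± 1.2 against 38.0 ± 2.2 CPM at 240 h, and did not pass. Mrto4, a trans-acting factor of the ribosomal stalk, was at 13.6 to 18.6 CPM over the 12 libraries and passed at neither time.

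Outside these groups, the RNA helicase gene Ddx21 was at 154, 149 and 153 CPM with WM-2474 and 129, 144 and 141 CPM with WM-8014 at 96 h, and at 165, 185 and 186 against 155, 157 and 151 CPM at 240 h. Its groups did not overlap, and it fell at 96 h (-0.14, SE 0.047, adjusted p = 0.0331), a call lost in 8 of 22 alternatives, and at 240 h (-0.21, SE 0.046, adjusted p = 0.000717). Mybbp1a, a nucleolar protein that binds MYB and p53, did not pass at 96 h and fell at 240 h, with 246, 287 and 274 CPM against 224, 243 and 229 CPM (-0.21, SE 0.052, adjusted p = 0.00334), a call lost only without culture 7 (adjusted p = 0.108).

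The interaction compared the effect of WM-8014 at 240 h with its effect at 96 h. For 5 members the effect was more negative at 240 h (12.8% of members, against 5.53% of all genes called in this direction, 5.15% in the other and 10.7% in either). These were Nip7 (-0.33, SE 0.091, adjusted p = 0.0222), Nop58 (-0.29, SE 0.068, adjusted p = 0.00698), Rrp1b (-0.26, SE 0.081, adjusted p = 0.0428), Ncl (-0.23, SE 0.061, adjusted p = 0.0191) and Noc2l (-0.19, SE 0.06, adjusted p = 0.0497). No member passed in the other direction by edgeR, 0 did at an unadjusted p under 0.05, and DESeq2 called 0. Npm1 did not pass (-0.21, SE 0.068, adjusted p = 0.0503), and passed with the culture number as a block (adjusted p = 0.0166). The call of Nop58 held in 17 of 21 alternatives, that of Ncl in 13, of Nip7 in 12, and of Rrp1b and Noc2l in 4 each. The median difference over the 39 was -0.08. It was -0.15 without culture 5 or -0.048 without culture 6 of the WM-2474 240 h group, -0.041 without culture 6 of the WM-8014 96 h group, and -0.18 or -0.027 without culture 5 or 6 in all groups. In the WM-2474 240 h group, leaving out culture 5, 6 or 7 turned the count of 5 into 9, 1 or 1, and in the WM-2474 96 h group leaving out culture 6 or 7 turned it into 3 or 1. In the WM-8014 96 h group it became 2 without culture 6 or culture 7, and in the WM-8014 240 h group 3 without culture 5 or culture 7. It was 8, 0 and 0 without culture 5, 6 or 7 in all groups and 0 with cultures 6 and 7 both removed from the WM-2474 96 h group.

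Time in culture was compared within each compound. With WM-2474, 16 members rose from 96 to 240 h and 0 fell (41.0% higher, against 19.8% of all genes higher, 19.1% lower and 38.9% either way). At an unadjusted p under 0.05, 1 member was lower (Ncl), which passed with the culture number as a block (adjusted p = 0.0412), and DESeq2 called 0 lower. With WM-8014, 8 rose and 10 fell (20.5% and 25.6%, against 24.8% and 25.0% of all genes and 49.7% either way). The median log2 change over the 39 was 0.10 with WM-2474 and -0.0035 with WM-8014. The former was 0.17 without culture 5 of the WM-2474 240 h group, 0.19 without culture 5 in all groups and 0.055 with cultures 6 and 7 both removed at 96 h. In the WM-2474 cultures the median change was -0.04 in culture 5, 0.18 in culture 6 and 0.16 in culture 7, so culture 5 did not share the rise of the other 2.

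Calls with both compounds were made as higher for 8 members: Nop2, Rrp9, Rrp12, Utp18, Bop1, Bysl, Noc3l and Ddx21. Not all were firm: with WM-2474 the call of Rrp9 was lost in 16 of 22 alternatives, the culture block among them (adjusted p = 0.0535), that of Bysl in 10, of Utp18 in 7 and of Noc3l in 5, and with WM-8014 that of Utp18 in 11 and of Bysl in 4. Nop2 rose by 0.28 on the log2 scale with WM-2474 (adjusted p = 0.000168) and by 0.26 with WM-8014 (adjusted p = 0.000474), Rrp12 by 0.28 (adjusted p = 0.00113) and 0.24 (adjusted p = 0.00417), and Bop1 by 0.19 (adjusted p = 0.00186) and 0.26 (adjusted p = 7.9e-05). Another 6 rose with WM-2474 alone past the test: Nop56, Rrs1, Wdr75, Heatr1, Gnl3 and Tsr1. Nop58 and Nip7 rose with WM-2474 (0.13 (adjusted p = 0.0309) and 0.17 (adjusted p = 0.0382)) and fell with WM-8014 (-0.16 (adjusted p = 0.00945) and -0.16 (adjusted p = 0.0486)). Both rises were lost in 10 of 22 alternatives, the fall of Nip7 in 15, DESeq2 among them, and that of Nop58 in 4. A fall with WM-8014 and no call with WM-2474 was found for Ncl, Npm1, Dkc1, Rrp1b, Utp20, Utp15, Noc2l and Noc4l, although Ncl was also lower with WM-2474 under the block. The fall of Dkc1 was lost in 12 of 22 alternatives, that of Noc4l in 6 and of Utp20 in 5. The largest of these falls were those of Ncl (-0.32 (adjusted p = 2.72e-06)) and Npm1 (-0.28 (adjusted p = 6.86e-05)), beside changes with WM-2474 of -0.09 (adjusted p = 0.0924) and -0.07 (adjusted p = 0.268). The test of the difference between compounds is the interaction given before, which Nop58, Nip7, Ncl, Rrp1b and Noc2l passed. For all genes, such joint calls under both compounds were not counted.

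The rise with WM-2474 depended on the libraries of cultures 6 and 7. The count of 16 became 10 or 9 when culture 6 or 7 was left out of the 96 h group, 9 or 10 when it was left out of the 240 h group, 8 or 6 when it was left out everywhere, 6 with all libraries thinned and 4 with both cultures removed at 96 h. The 10 falls with WM-8014 became 5 when culture 6 was left out of the 96 h group and 4 when it was left out everywhere. Nop2, Rrp12 and Ddx21 (WM-2474), Nop2, Rrp9 and Bop1 (higher with WM-8014) and Ncl, Npm1 and Rrp1b (lower with WM-8014) kept their calls over time in all 22 alternatives.

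Another 128 genes of ribosome biogenesis, from 5 lists, had smaller median changes than the members. At 96 h 12 of them fell and 3 rose, and the share that fell, 9.38%, was below the 11.8% of all genes. At 240 h 39 fell and 3 rose (30.5% lower, against 21.4% of all genes), and their median log2 fold change was -0.05 at 96 h and -0.09 at 240 h. Among other snoRNP proteins and their assembly factors 6 of 12 fell at 240 h. Nhp2, a partner of Dkc1, fell from 42.3 ± 1.3 to 32.4 ± 0.65 CPM at 96 h and from 42.8 ± 3.3 to 37.1 ± 0.58 CPM at 240 h, while Nop10, another protein of the same particle, rose from 22.4 ± 1.7 to 27.4 ± 1.2 CPM and from 25.4 ± 0.93 to 28.9 ± 1.4 CPM (adjusted p = 0.00681 and 0.0165). Snu13, of the box C/D particle, and Ruvbl2, of their assembly machinery, fell at 240 h (-0.29 (adjusted p = 0.000483) and -0.28 (adjusted p = 7.23e-05) on the log2 scale).

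Over all genes tested, 11.8% were called lower and 10.9% higher at 96 h, and 21.4% and 21.2% at 240 h. Of 13 other genes of RNA polymerase I and its factors, 0 passed at 96 h and 2 fell at 240 h (15.4%). These were Polr1c (-0.26 (adjusted p = 0.0038)) and Cd3eap (-0.18 (adjusted p = 0.0292)). Of 39 other small-subunit factors 2 fell at 96 h (Nop9 and Riok2) and 9 at 240 h, with 1 higher each time, and of 41 other large-subunit factors 5 fell at 96 h and 16 at 240 h, with 1 higher at 240 h. Rrp1, a relative of Rrp1b, fell from 147 ± 4.2 to 129.8 ± 0.55 CPM at 96 h and from 151 ± 1.4 to 126 ± 2 CPM at 240 h. Pelp1 fell at 240 h (-0.28 (adjusted p = 2.09e-05)) and Mak16 at 96 h (-0.24 (adjusted p = 0.00486)). Of 23 genes of the RNA exosome and precursor trimming 3 fell (13.0%) and 1 rose at 96 h and 6 fell at 240 h (26.1%). Exosc8 fell from 25.8 ± 1.9 to 16.3 ± 0.57 CPM at 240 h and Pop1, of RNase P and MRP, from 27.1 ± 1.7 to 20.0 ± 0.82 CPM.

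**Figure D4:**
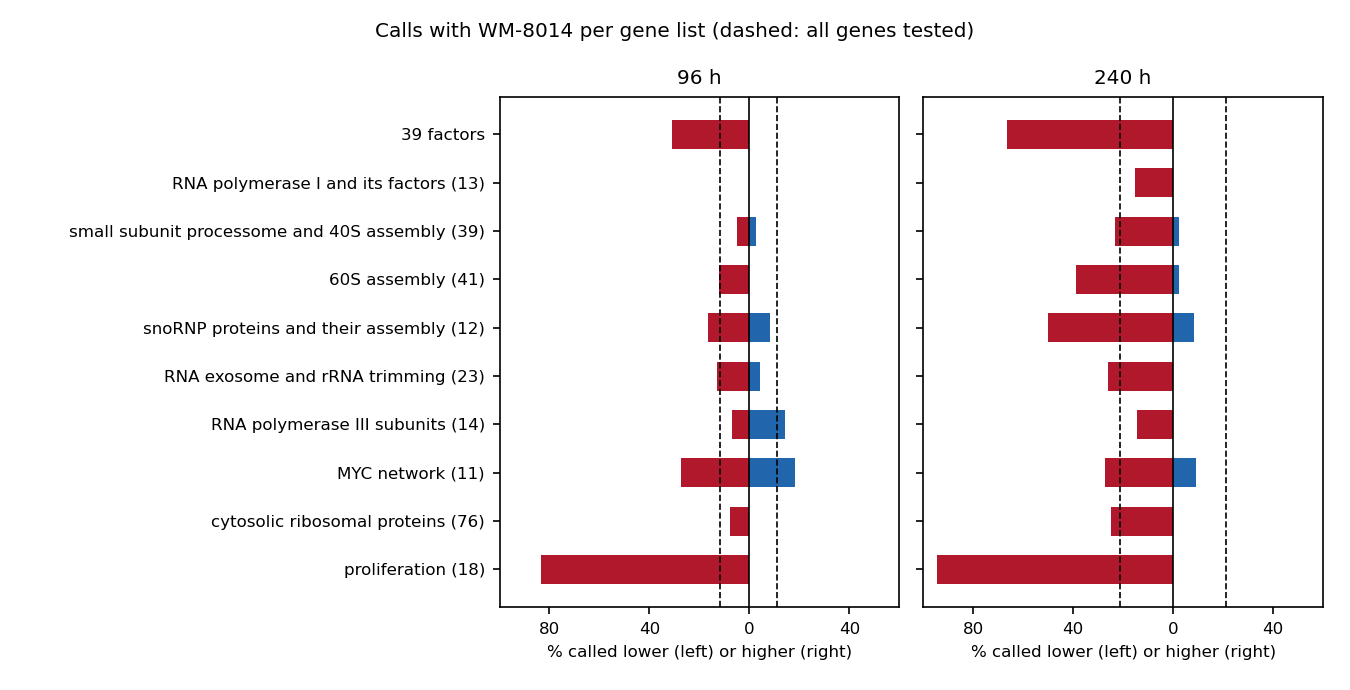
Share of each gene list called lower (bars to the left) or higher (bars to the right) with WM-8014 at 96 h and 240 h, with dashed lines at the share of all genes tested. The 39 factors reach 66.7% lower at 240 h. The lists that make up the other 128 biogenesis genes run from 15.4% (RNA polymerase I and its factors) to 50% (snoRNP proteins and their assembly).

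Products and regulators of the pathway were described by the same counts. Of all genes 11.8% were lower and 10.9% higher at 96 h, and 21.4% and 21.2% at 240 h. Of 76 tested genes of cytosolic ribosomal proteins, 6 fell at 96 h and 19 at 240 h (25.0%), with 0 higher, and their medians were -0.04 and -0.08. Rpl8 fell from 773 ± 17.3 to 650.4 ± 2.5 CPM and Rps2 from 371 ± 8.5 to 313 ± 7.5 CPM at 240 h. Many of these genes have processed copies in the genome, so their counts are uncertain. Of 14 RNA polymerase III genes 1 fell and 2 rose at 96 h and 2 fell at 240 h. Myc was at 65.4 ± 9.2 against 65.0 ± 7 CPM at 96 h and at 75.5 ± 6.9 against 74.2 ± 6.1 CPM at 240 h, with log2 fold changes of 0.02 (adjusted p = 0.938) and -0.02 (adjusted p = 0.931). Of 11 genes of the MYC network 3 fell and 2 rose at 96 h, and 3 fell and 1 rose at 240 h, with medians of -0.01 and -0.08. The pair with the smallest p at each time were Mycl and Mxd3. Mycl fell from 7.97 ± 1.2 to 4.42 ± 0.15 CPM at 96 h and from 13.3 ± 1.6 to 8.39 ± 2 CPM at 240 h, and Mxd3, a MAX partner found in dividing cells, fell from 8.79 ± 0.74 to 2.59 ± 0.51 CPM at 240 h.

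Genes of cell division had larger falls than the members. Of 18 such genes 15 fell at 96 h and 17 at 240 h, with median log2 fold changes of -0.38 and -1.13. These are 83.3% and 94.4%, against 11.8% and 21.4% of all genes. Mki67, a marker of dividing cells, went from 259 ± 13.6 to 197 ± 11.3 CPM at 96 h and from 167 ± 7.5 to 57.9 ± 4.1 CPM at 240 h. All 18 fell from 96 to 240 h with WM-2474, where 16 members rose and 0 fell. The part of these genes' decline in the lower member levels was not tested.

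The members lie on 16 chromosomes, and 6 are on chromosome 1. Inside 7 of them lie 21 snoRNA genes on the same strand: 5 in Nop56, 4 in Nop58, 3 each in Ncl, Wdr43 and Gnl3, 2 in Tsr1 and 1 in Dkc1. All 7 hosts fell at 240 h and 4 fell at 96 h (Nop56, Nop58, Ncl and Wdr43). Of all 39 members 26 and 12 fell at these times, and of all genes 21.4% and 11.8%. The hosts Nop56, Nop58, Ncl and Dkc1 also belong to the snoRNP and chaperone group described above. Poly(A) selection does not measure the snoRNAs themselves. Another gene with a transcript at least 90% identical over at least 300 bases was found for 13 members. Of the 26 members without one, 7 fell at 96 h and 16 at 240 h. An exon of 19 members overlaps an exon on the opposite strand, and the strand setting of the counting is not given in the sources used here, so their reads may include those of the neighbour.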

How the data were processed

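Poly(A)-selected RNA of 12 cultures was sequenced from libraries that keep strand, per the labels' protocols. Per the submitters' processing notes, the authors counted reads with featureCounts on build mm10, and the deposited values are raw counts by gene. Which aligner, annotation, version and strand setting were used is not stated in the labels. The gene lengths deposited by the authors served only to set levels of different genes beside each other. Of 27179 genes, 25275 (93.0%) were matched to a symbol in a RefSeq table of assembly GRCm38.p6.

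The test was edgeR's (4.0.16, in R 4.3.3) robust quasi-likelihood F test, two-sided, after filterByExpr by group, which left 14136 genes, and TMM scaling. All 12 libraries entered with 1 mean per group (common biological coefficient of variation 4.64%). The F statistic and the log2 fold change gave standard errors and 95% intervals. The script was tested on simulated counts with 200 changed genes. CPM values are counts over the TMM-scaled library total. By the unscaled totals, 3 reads correspond to 0.0654 to 0.296 CPM, which covers counting error only. Alternatives were DESeq2 1.42.0, its size factors, no filter, only the groups compared, the culture number as a block, thinning to 10147466 reads, and leaving out libraries or cultures. Deviations of same-numbered cultures from their group means correlated between compounds at 0.14, 0.15 and 0.16 at 96 h and at 0.064, 0.24 and 0.048 at 240 h. Between times they correlated at 0.029, 0.10 and 0.074 with WM-2474 and at 0.064, 0.19 and 0.082 with WM-8014. Differently numbered cultures were not compared in this way, so these values cannot settle whether the numbers pair the samples. Calls come from the fit without the block, and blocked values stand beside the calls that the block changed.

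The members, the lists and the tests were chosen with earlier results of these data known. All members were named with levels. Tests were given for 14 members whatever their values and for the 6 highest and 6 lowest of the others that passed in a comparison. Those of further members were added after their values were seen. From each other list the 2 genes with the smallest p at each time were taken, and Myc and Mki67 were added. No set test was run.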

Additional observations from a re-analysis of the deposited data

Results flagged for a closer look

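The effect of WM-8014 differed between 96 and 240 h, by the interaction term, in 5 members, each more negative at 240 h. The differences on the log2 scale were -0.29 for Nop58, -0.23 for Ncl, -0.26 for Rrp1b, -0.19 for Noc2l and -0.33 for Nip7, with adjusted p of 0.00698, 0.0191, 0.0428, 0.0497 and 0.0222 (edgeR). For Nip7 the effect was 0.00 at 96 h and -0.32 at 240 h, and for Nop58 it was -0.16 and -0.46. Over the alternatives the highest adjusted p was 0.366 for Nop58, 0.306 for Ncl, 0.517 for Rrp1b, 0.382 for Noc2l and 0.366 for Nip7.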

How the results depend on the processing

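There were 22 alternatives (21 for the interaction), and the ranges here cover only those that left out 1 library or 1 culture. Members called lower then numbered 2 to 12 at 96 h and 18 to 28 at 240 h. All genes called numbered 1750 to 3392 and 4354 to 6089. Members called higher were 0 to 1 at each time, and the median at 240 h was -0.27 to -0.18. For the interaction the leave-outs gave 0 to 9 members lower and 724 to 1603 genes. Over time they gave 6 to 22 members higher with WM-2474, and with WM-8014 4 to 10 lower and a median of -0.044 to 0.032.

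With the culture number as a block, 1 member was higher at 96 h (Polr1a, also with only the groups compared), 12 were lower there and 27 at 240 h, and 1 was lower over time with WM-2474. The block added calls for Polr1a at 96 h, Pes1 at 240 h (adjusted p = 0.034 each), Npm1 in the interaction (0.0166) and Ncl over time with WM-2474 (0.0412), and ended that of Rrp9 over time with WM-2474 (0.0535). It changed no other named call. Thinning gave 1868 genes at 96 h, 3 members and 903 genes for the interaction, 6 members higher and 1 lower over time with WM-2474, and 5 higher, 6 lower and a median of -0.039 with WM-8014. DESeq2 gave 2 members for the interaction. With cultures 6 and 7 both removed from the WM-2474 96 h group, 3 members and 869 genes were called at 96 h, 0 and 586 for the interaction, and 4 members higher and 2710 genes over time with WM-2474, where fewer libraries alone can end calls.

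Fold changes that turned sign had not passed the test. Thinned, they were 0.011 for Pes1 at 96 h, for the interaction 0.0097 for Nop56, -0.051 for Wdr12 and -0.028 for Bysl, and over time with WM-2474 0.070 for Fbl and 0.12 for Wdr12. With both libraries removed they were 0.073 for Fbl and 0.0074 for Nop56 (interaction) and -0.024 for Dkc1 (time, WM-2474). With libraries left out they ran at 96 h from -0.12 to 0.0078 for Heatr1 and -0.093 to 0.0082 for Bysl, and at 240 h from -0.0020 to 0.15 for Polr1a, -0.019 to 0.062 for Bop1 and -0.089 to 0.070 for Bysl. For the interaction they ran from -0.040 to 0.12 for Bysl, -0.16 to 0.14 for Fbl, -0.18 to 0.049 for Polr1a, -0.087 to 0.020 for Nop2, -0.097 to 0.29 for Wdr12 and -0.19 to 0.028 for Polr1b. Over time with WM-2474 they ran from -0.10 to 0.099 for Polr1b, -0.0016 to 0.059 for Pes1, -0.14 to 0.041 for Wdr12 and -0.0038 to 0.21 for Dkc1, and with WM-8014 from -0.0037 to 0.085 for Polr1a, -0.080 to 0.17 for Wdr12 and -0.081 to 0.0063 for Pes1. The cause was not tested.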
